A study of Arabidopsis thaliana with 9 samples.

Results

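The genes described here encode the small subunit of Rubisco and the enzyme that keeps Rubisco active. They are the 4 Rubisco small subunit (RBCS) genes of Arabidopsis thaliana, RBCS1A (AT1G67090), RBCS1B (AT5G38430), RBCS2B (AT5G38420) and RBCS3B (AT5G38410), with RCA (AT2G39730), which encodes Rubisco activase, and AT2G39725, the locus that lies beside RCA and is annotated as a LYR family protein of iron-sulphur cluster biogenesis. They were taken by locus name, as 6 of the 21063 loci with sense tags in the series, and AT2G39725 was chosen by a measured value, its lower tag level in the slh1 mutant than in the wild type. Its genotype difference is therefore a description and carries no test. Its changes over time were tested, but in the same libraries on which it was chosen.

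Rubisco fixes CO2 in the chloroplast stroma as a complex of large subunits, encoded in the chloroplast genome, and small subunits, made in the cytosol from nuclear genes and imported. Rubisco activase uses ATP to release inhibitory sugar phosphates from the active site, and it is known as the heat-sensitive step of the pathway. Transcripts of small subunit genes and of RCA are among the most abundant in leaf mesophyll and follow light and the circadian clock.

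The libraries came from leaves of 4-week-old plants of the Nossen (No-0) wild type and of slh1, a mutant in the No-0 background in which the immune receptor gene RRS1 is changed. Plants of both genotypes were grown at 28 °C in 10 h of light and 14 h of dark and moved to 21 °C when the light period began. Leaves were taken at 0 h (still at 28 °C) and at 6, 9 and 24 h after the move, which gave 8 groups with 1 library each, and how many plants were pooled is not given in the sources used here. The 0 h and 24 h leaves were cut at the same time of day and the 6 h and 9 h leaves in the light period, so at 6 h and 9 h temperature and time of day cannot be told apart.

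Each library was made by EXPRSS Tag-seq, which reads 1 strand-specific tag near the 3′ end of each polyadenylated transcript, so levels of different genes can be set side by side without a correction for length. Levels are sense tags scaled to 1000000 sense tags in the library (TPM). The libraries held 200614 to 503398 sense tags, so that 1 tag stood for 1.99 to 4.98 TPM, and the libraries of slh1 at 0 h and 24 h were the shallowest. Chloroplast and mitochondrial loci took 13.5% to 22.7% of sense tags. All 4 leaf mesophyll markers had tags in each library, with a summed level of 6880 to 15839 TPM, and the 3 seed markers had none.

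The 4 small subunit genes are near copies in their coding parts, which bears on every count below, because a 36-base read that matches several genes was divided equally between them. RBCS1A stands alone at chr1:25048158-25049667, and RBCS3B, RBCS2B and RBCS1B lie in tandem within 8333 bases at chr5:15376988-15378642, chr5:15380907-15382071 and chr5:15383167-15385320, all on the minus strand of TAIR10.1. RBCS1A shares 89.9% to 90.1% of its coding bases with the B genes, and the B genes share 96.7% to 97.3% with each other. The stretches below, 108 bases on the minus strand that end 12 to 15 bases before the end of the stop codon, are from RefSeq TAIR10.1 and are shown because they hold the longest run common to all 4 genes; capitals mark the 8 bases at which the genes differ, of which 1 differs among the B genes.
RBCS1A (chr1:25048477-25048584): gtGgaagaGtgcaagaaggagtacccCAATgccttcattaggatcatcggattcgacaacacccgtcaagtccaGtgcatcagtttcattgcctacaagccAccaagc
RBCS1B (chr5:15384365-15384472): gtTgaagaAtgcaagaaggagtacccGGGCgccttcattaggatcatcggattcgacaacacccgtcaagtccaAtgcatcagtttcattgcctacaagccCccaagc
RBCS2B (chr5:15381218-15381325): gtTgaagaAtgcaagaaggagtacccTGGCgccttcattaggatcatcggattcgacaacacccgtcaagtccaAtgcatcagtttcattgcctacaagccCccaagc
RBCS3B (chr5:15377516-15377623): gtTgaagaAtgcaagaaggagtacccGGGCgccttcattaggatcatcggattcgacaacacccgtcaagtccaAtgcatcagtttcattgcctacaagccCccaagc

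The run without capitals in the middle is 44 bases long, so 9 different 36-base reads fit all 4 genes alike. Of the 200 possible reads that start in the last 200 coding bases, 4.5% were shared with another locus for RBCS1A, 77.5% for RBCS1B, 58.0% for RBCS2B and 83.0% for RBCS3B. Of the reads that start after the stop codon, none was shared for any of the 6 genes. RCA and AT2G39725 shared no 36-base sequence with another locus in either region. Fractional counts, the mark of a divided read, occurred in 8 of 8 libraries for RBCS1B, RBCS2B and RBCS3B, in 6 of 8 for RBCS1A, in 4 of 8 for RCA and in 0 of 8 for AT2G39725, always as multiples of 1/12. The 3 B genes are thus uncertain relative to each other wherever tags lay in the coding region. The sum of the 4 genes, in which a read divided among them counts whole, is given beside them, and it was itself fractional in 4 of 8 libraries.

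**Figure D1:**
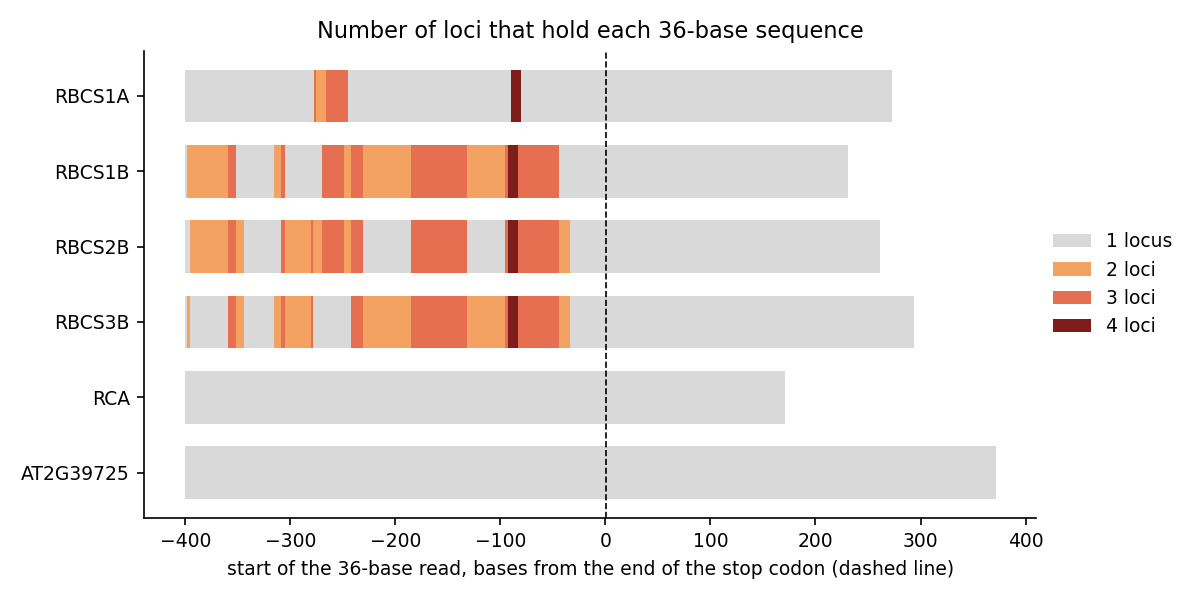
Each row is 1 gene and the x axis is the start of a 36-base read in bases from the end of the stop codon, with colours for the number of loci that hold that sequence. Sharing among the B genes ends before the stop codon, RBCS1A has only short shared blocks, and RCA and AT2G39725 have none.

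RCA (chr2:16570746-16573692, minus strand) and AT2G39725 (chr2:16569430-16570748, plus strand) point towards each other and overlap by 3 bases at their 3′ ends. In the authors' counting, an antisense read within 500 bases of the 3′ end of a gene on the other strand went to that gene. Tags near this junction could therefore pass between the 2 loci, and how many did was not tested.

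Light-response motifs were looked for in 300-base windows, 250 bases before to 50 after the start of the transcript with the shortest leader, on both strands. Part of this sequence is itself transcribed in longer annotated forms: of the 120 bases from 160 to 41 before that start, which hold all of the matches, 120 lie in an exon of a longer transcript for RBCS1A, RBCS3B and RCA, 33 for RBCS1B and 0 for RBCS2B. The G-box (CACGTG) was found once each at RBCS1A, RBCS2B, RBCS3B and RCA and not in the windows of RBCS1B and AT2G39725, and it is in 7.65% of 27443 such windows. The I-box (GATAAG) was found 2 times at RBCS1A, 2 times with 1 base of overlap at RBCS1B, 3 times each at RBCS2B and RBCS3B, and not at RCA or AT2G39725, and it is in 15.0% of windows. Both motifs together are in 1.31% of windows. The part of the RBCS2B window that holds all of its matches is shown because none of it lies in an exon of a longer transcript. RBCS3B has the same numbers of both motifs, and a link between motifs and levels was not tested. The part shown lies 160 to 41 bases before the start, from RefSeq TAIR10.1. Capitals mark the G-box and the I-boxes, the second I-box on the other strand.
RBCS2B (chr5:15382112-15382231, minus strand): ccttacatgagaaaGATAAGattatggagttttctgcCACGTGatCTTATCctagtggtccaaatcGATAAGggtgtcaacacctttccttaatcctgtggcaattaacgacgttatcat

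Small subunit transcripts were among the most abundant of the leaf in both genotypes. By mean TPM over the 8 libraries RBCS1A ranked 3, RBCS3B 7, RBCS2B 9, RBCS1B 27, RCA 63 and AT2G39725 166, and this order held within each of the 8 libraries. The intervals of RBCS3B and RBCS2B overlapped in No-0 at 0 h (10605 to 11289 and 10250 to 10922 TPM, exact Poisson 95% intervals). Intervals of this kind cover counting error only, since the reads carry no molecular identifiers. In bulk leaf a lower level can mean fewer cells of a type or less RNA per cell, and these cannot be told apart.

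RBCS1A, the most abundant small subunit gene, kept a high level through the course. Its TPM in No-0 was 18686 before the move and 14855, 18896 and 21678 after 6, 9 and 24 h. Its TPM in slh1 was 18119 before the move and 15546, 15368 and 16640 after 6, 9 and 24 h. The lowest and the highest library were both from No-0, and the range at 0 h lay inside the range after the move.

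RBCS2B, a B gene, had the widest range of the 4 small subunit genes, 2.68-fold. The No-0 libraries gave 10582 TPM before the move, then 4744, 5595 and 4971 TPM in time order. The slh1 libraries gave 10018 TPM before the move, then 5333, 6703 and 3955 TPM. The 0 h libraries of both genotypes were above all 6 later libraries, of which the highest was slh1 at 9 h.

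RBCS3B and RBCS1B, its tandem neighbours, were also highest at 0 h. In time order, RBCS3B had 10943, 6679, 8789 and 8049 TPM in the wild type, and the slh1 libraries gave 10961, 8661, 8190 and 7014. RBCS1B had 5176, 2656, 4071 and 3976 TPM in the wild type, and the slh1 libraries gave 5350, 2821, 4363 and 3254. For each of these genes the 0 h levels of the genotypes lay close together and above every later level, and the lowest library of both by TPM was No-0 at 6 h. With nuclear sense tags alone as the base, the lowest was slh1 at 6 h for RBCS1B and slh1 at 24 h for RBCS3B.

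Summed, the 4 genes gave 45386, 28934, 37351 and 38673 TPM in No-0, in time order. The sum in slh1 was 44449, 32360, 34624 and 30863 TPM. Small subunit transcripts thus made up 2.89% to 4.54% of all sense tags, with the most at 0 h in both genotypes.

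RCA was lowest at 9 h and higher again a day after the move in both genotypes. Its TPM was 2988, 1658, 1276 and 2510 in No-0, in time order. Its TPM was 3253, 2440, 1403 and 2179 in slh1. The 9 h libraries were the lowest of each genotype, and the 0 h libraries the highest.

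AT2G39725 ran another course. In time order the No-0 libraries gave 394, 1180, 429 and 1436 TPM, from 143, 371, 156 and 723 tags. Those of slh1 gave 548, 569, 309 and 798 TPM, from 110, 224, 124 and 164 tags. The levels of No-0 at 6 h and 24 h were above all others, and its range over the 8 libraries was 4.65-fold.

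**Figure D2:**
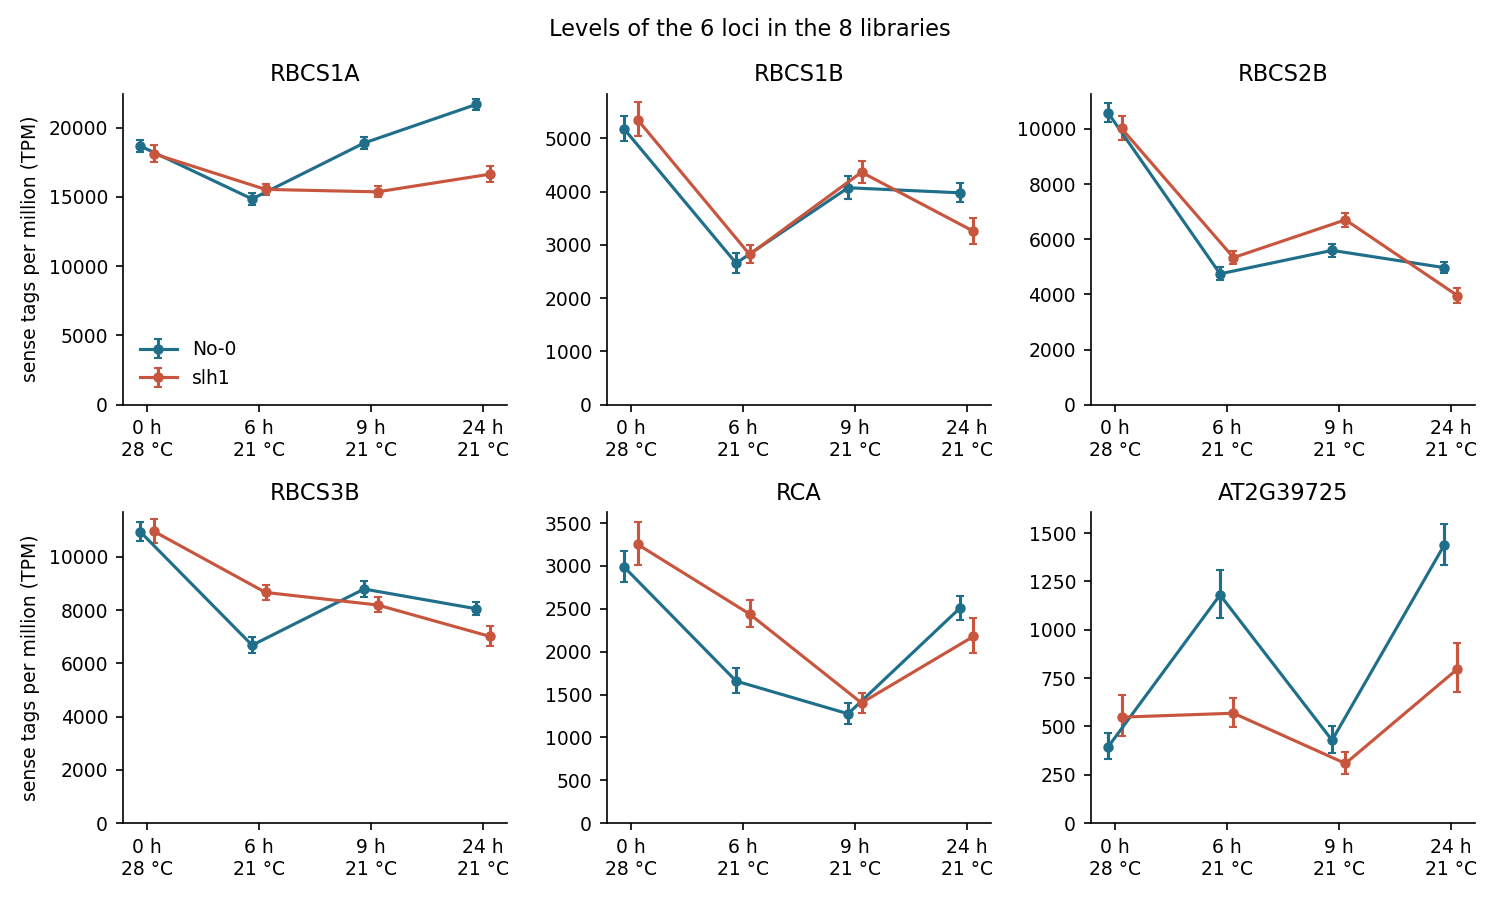
Scaled sense tags (TPM, y axis) of the 6 loci at each time after transfer (x axis, with the temperature), 1 library per point, with exact Poisson 95% intervals as bars. RBCS1B, RBCS2B, RBCS3B and RCA are highest at 0 h in both genotypes, RCA is lowest at 9 h (1276 and 1403 TPM), and AT2G39725 in No-0 peaks at 6 h and 24 h (1180 and 1436 TPM).

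The first question is how the members changed after the move to 21 °C. It was tested with edgeR's quasi-likelihood test over 7824 genes, with the genotype as a block, so that the No-0 and slh1 libraries served as the replicates of a time point. Fold changes are log2 values scaled by edgeR's TMM factors, and a gene was called at a Benjamini-Hochberg adjusted p below 0.05. The p-values rest on how unlike the changes were in the genotypes, a spread that edgeR pools in part over all genes. They therefore do not measure how well the libraries of a time point agreed for a single gene.

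At 6 h, RBCS2B and RBCS1B were lower and the other members were not called. RBCS2B fell by 1.00 ± 0.22 (log2, SE; adjusted p = 0.000591) and RBCS1B by 0.91 ± 0.23 (adjusted p = 0.00414), each lower in 2 of 2 genotypes. Of the 6 members 2 were called, against 4.21% of all genes tested. RBCS3B had a log2 change of -0.49 ± 0.21 (adjusted p = 0.208), RCA of -0.60 ± 0.24 (0.167), RBCS1A of -0.25 ± 0.20 (0.613) and AT2G39725 of 0.83 ± 0.29 (0.0807). Within genotypes the ratio of the 6 h to the 0 h level of AT2G39725 was 2.99 in No-0 (log2 1.58, counting interval 1.30 to 1.87) and 1.04 in slh1 (log2 0.05, interval -0.28 to 0.40). The RBCS1B change stayed at -0.98 to -0.83 when each library was left out, but its call was lost without some: its adjusted p was 0.0888 without the 0 h and 0.0799 without the 6 h library of No-0, and 0.0585 and 0.121 without the same libraries of slh1. The RBCS2B call was lost without No-0 at 0 h (log2 change -0.98, adjusted p = 0.0748).

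At 9 h, RCA and RBCS2B were lower. RCA fell by 1.27 ± 0.24 on the log2 scale (adjusted p = 3.06e-05), to 0.427 times its 0 h level in No-0 and 0.431 times in slh1. RBCS2B fell by 0.79 ± 0.22 (adjusted p = 0.00727), to 0.529 times in No-0 and 0.669 times in slh1. Of the 6 members 2 were called, against 7.49% of all genes tested. The other changes were -0.16 for RBCS1A, -0.37 for RBCS1B, -0.41 for RBCS3B and -0.45 for AT2G39725, with adjusted p of 0.259 to 0.712. The RCA call held in 16 of 16 alternatives and without each library, whereas RBCS2B, lower in each such fit (-0.93 to -0.60), lost its call without No-0 at 0 h (adjusted p = 0.142) or without No-0 at 9 h (0.326).

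At 24 h, at the time of day of the 0 h leaves, RBCS2B was still lower and AT2G39725 was higher. RBCS2B fell by 1.15 ± 0.22 (adjusted p = 7.99e-06), to 0.470 times its 0 h level in No-0 and 0.395 times in slh1. AT2G39725 rose by 1.22 ± 0.29 (adjusted p = 0.000479), 3.64-fold in No-0 and 1.45-fold in slh1. It was chosen on its levels in these same libraries, and how far that choice bears on this p-value was not tested. Of the 6 members 2 were called, AT2G39725 with that limit among them, against 18.7% of all genes tested. RCA, with a change of -0.34 ± 0.24 (adjusted p = 0.338), was not called at 24 h, and RBCS1B (-0.48 ± 0.23, 0.126), RBCS3B (-0.48 ± 0.21, 0.0966) and RBCS1A (0.11 ± 0.20, 0.747) were not either. Of the 7 alternatives that kept every library, RBCS3B was called lower at 24 h in 4 and RBCS1B in 3. Of the 6 members, limma-voom called 4 at 6 h, 3 at 9 h and 4 at 24 h. DESeq2 called 2 at each of these times. The RBCS2B call held in 15 of 15 alternatives and the AT2G39725 call was lost without No-0 at 0 h (log2 change 0.54, adjusted p = 0.364).

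For the sum of the 4 small subunit genes the log2 change was -0.52 ± 0.19 at 6 h (adjusted p = 0.0998), -0.37 ± 0.19 at 9 h (0.270) and -0.32 ± 0.19 at 24 h (0.255), and none was called by edgeR with TMM. Its unadjusted p was 0.00598 at 6 h, 0.0529 at 9 h and 0.0966 at 24 h. The limma-voom fit called the sum at each time point (adjusted p = 6.89e-05, 0.00418 and 0.0207) and DESeq2 at none. With edgeR it was called at 6 h when scaled by total sense tags (-0.56, adjusted p = 0.0453) or with nuclear genes alone (-0.56, 0.0107). The summed level of the leaf mesophyll markers moved too: it was 14910, 11235, 6880 and 11818 TPM for the wild type, in time order, and slh1 had 15839, 13756, 8073 and 10251. All 4 markers were lower at 9 h than at 0 h, but they parted at 24 h. At 24 h LHCB2.2 was called higher (log2 change 0.62), CA1 (-1.13) and GLDP1 (-3.00) lower, and LHCB3 (-0.18) was not called. Tags of the 5 root markers, of which 3 had any and TIP2;3 and PHT1;1 had none, summed to 0.689, 58.9, 49.5 and 52.6 TPM in the wild type, whereas slh1 had 6.65, 82.0, 95.9 and 7.30. PYK10, the most abundant of them, had no tag in either 0 h library. The part of these cell types in the changes above was not tested.

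**Figure D3:**
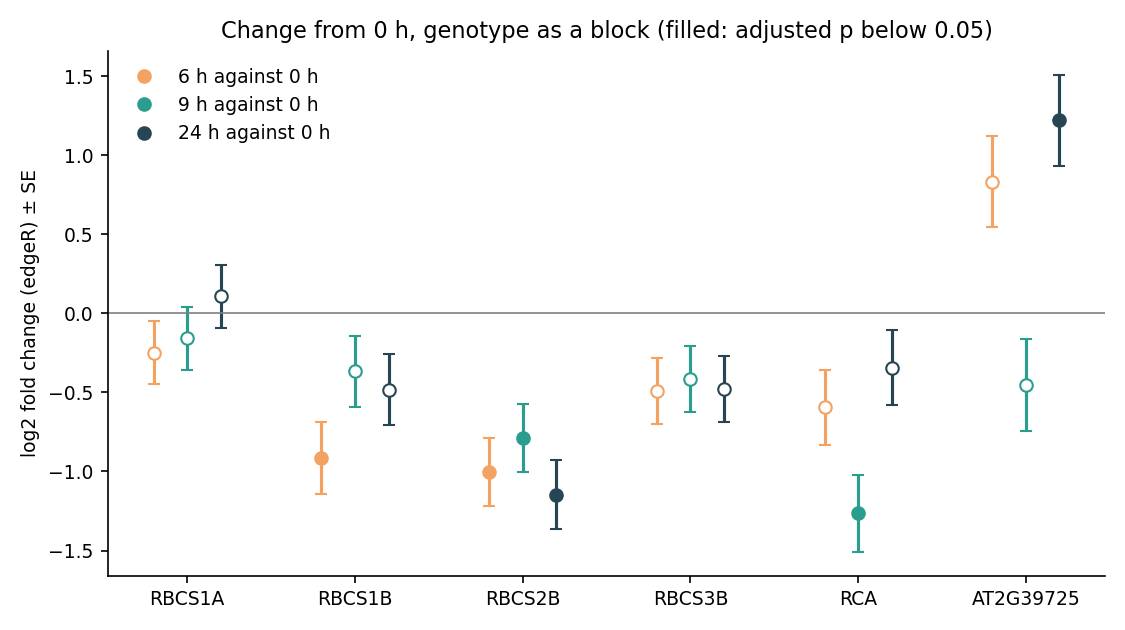
Log2 fold change from 0 h (y axis, edgeR estimate ± SE) of each locus at 6, 9 and 24 h over both genotypes; filled points passed an adjusted p of 0.05. RBCS2B is filled at all 3 times (-1.15 at 24 h), RBCS1B at 6 h, RCA at 9 h and AT2G39725 at 24 h.

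The makeup of the small subunit tags shifted towards RBCS1A, a measure that does not depend on how libraries are scaled. In No-0 RBCS1A gave 41.2% of the tags of the 4 genes before the move (Wilson 95% interval 40.4 to 41.9), then 51.3%, 50.6% and, a day later, 56.1% (55.4 to 56.7). In slh1 its share was 40.8% before the move (39.7 to 41.8), then 48.0%, 44.4% and 53.9% (52.7 to 55.1). Each of the 6 later libraries was above both 0 h libraries, beyond their counting intervals. RBCS2B lost most of what RBCS1A gained, from 23.3% to 12.9% between 0 h and 24 h in No-0 and from 22.5% to 12.8% in slh1. RBCS3B stayed between 20.8% and 26.8% and RBCS1B between 8.72% and 12.6%.

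Between genotypes the RBCS1A share was lower in slh1 at 4 of 4 time points, with a mean difference, slh1 minus No-0, of -3.01 ± 2.44 percentage points (SD over 4 pairs). The exact two-sided sign-flip permutation test gave the smallest p that 4 pairs allow, which is above 0.05. The gap was within the counting intervals at 0 h and widest at 9 h, where 50.6% stood against 44.4%. With 4 pairs no difference can pass this test.

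**Figure D4:**
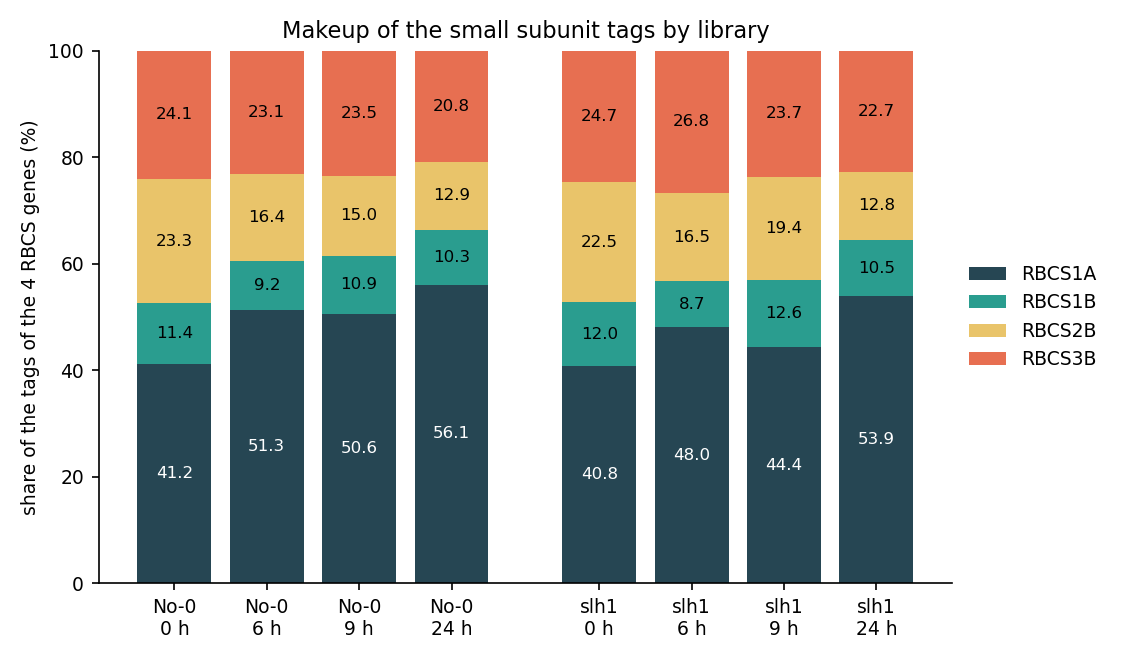
Stacked bars give the share of each small subunit gene in the tags of all 4 (y axis, %) for each library. RBCS1A goes from 41.2% and 40.8% (No-0 and slh1) before the move to 56.1% and 53.9% a day later, and RBCS2B from 23.3% and 22.5% to 12.9% and 12.8%.

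Activase transcripts were counted against those of the small subunits in the same library. In time order, RCA gave 6.58, 5.73, 3.42 and 6.49 tags per 100 RBCS tags in No-0. In slh1 it gave 7.32, 7.54, 4.05 and 7.06 tags per 100 RBCS tags. The 9 h libraries were the lowest of both genotypes, and slh1 was above No-0 at 4 of 4 time points. The log2 ratio was higher in slh1 by 0.23 ± 0.12 (SD over 4 pairs), again at the smallest p that the exact sign-flip test allows.

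**Figure D5:**
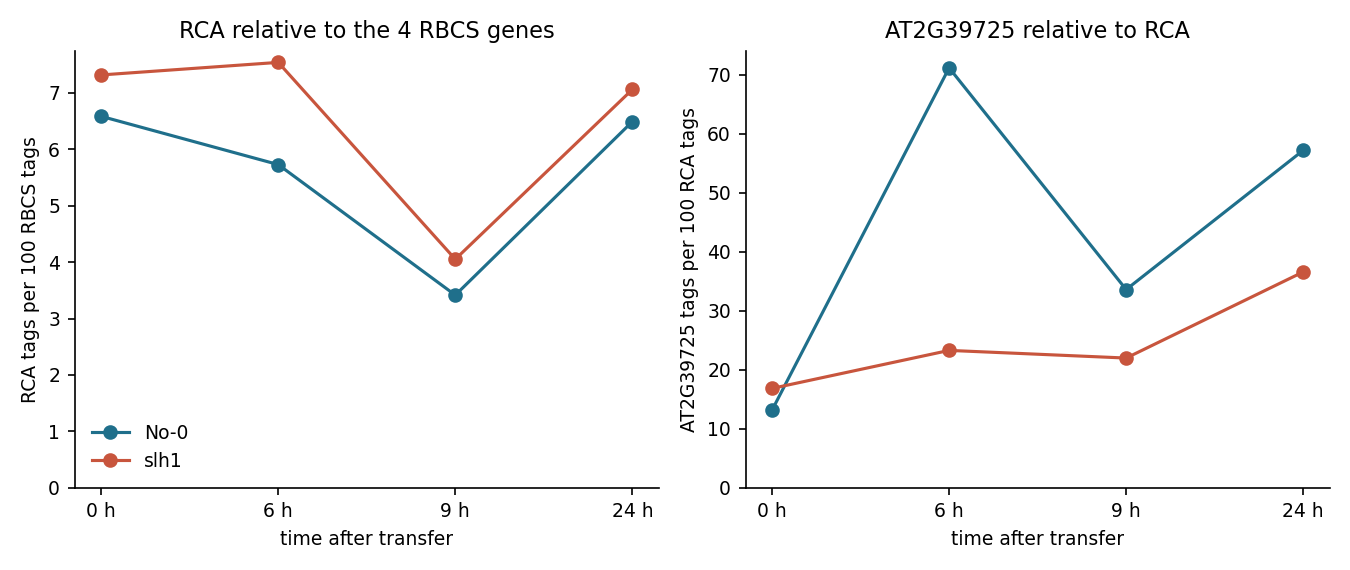
Left, RCA tags per 100 tags of the 4 RBCS genes; right, AT2G39725 tags per 100 RCA tags; the x axis is the time after transfer and each point is 1 library. The RCA ratio is lowest at 9 h (3.42 in No-0, 4.05 in slh1), and the AT2G39725 ratio spans 13.2 to 71.2 in No-0 and 16.9 to 36.6 in slh1.

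The second question is whether slh1 differs from No-0. Before the move, at 28 °C, the small subunit genes and RCA were at like levels in both genotypes. The slh1 level was 0.970 times that of No-0 for RBCS1A, 1.03 for RBCS1B, 0.947 for RBCS2B, 1.00 for RBCS3B and 1.09 for RCA. With 1 library against 1 and the spread taken from the later time points, edgeR called 0 of 5 members, against 0.0383% of all genes (3 of 7824), and 0 of 5 had an unadjusted p below 0.05 or a call by DESeq2 or limma-voom. The 95% intervals of the log2 difference reached from -0.56 to 0.30 for RBCS1A and from -0.57 to 0.64 for RCA, so differences of that size could not be seen.

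After the move, 1 genotype term was fitted over 6, 9 and 24 h, with these times as its replicates. Differences of opposite sign at different times, as for RCA below, can cancel in it. No small subunit gene and not RCA was called in slh1. The largest difference among these 5 was that of RBCS1A, -0.38 ± 0.13 on the log2 scale (95% interval -0.63 to -0.13; adjusted p = 0.450), which was the only 1 of 5 members with an unadjusted p below 0.05 (0.00382). At single times the ratio of slh1 to No-0 for RBCS1A was 1.05 at 6 h, 0.813 at 9 h and 0.768 at 24 h in TPM, and with nuclear tags alone as the base its log2 value at 6 h was -0.072 in place of 0.066. The organelle share of sense tags at 6 h was 22.7% in No-0 and 15.0% in slh1. RBCS1A was called by limma-voom (adjusted p = 0.0224), with nuclear genes alone (0.0115) and without slh1 at 24 h (0.0331), and by none of the other alternatives, DESeq2 included. The other log2 differences were -0.21 ± 0.16 for RBCS1B, -0.14 ± 0.15 for RBCS2B, -0.15 ± 0.14 for RBCS3B and -0.01 ± 0.18 for RCA, beside a median of -0.05 over all genes. Scaling by total sense tags moved that median to 0.14 and the differences of RBCS2B, RBCS3B and RCA to 0.04, 0.03 and 0.17. RCA also changed sign when single libraries were left out (-0.13 to 0.15), and so did RBCS2B (-0.20 to 0.013). edgeR called 0 of 5 members here, against 0.102% of all genes (8 of 7824, 2 higher and 6 lower, against 6 higher and 4 lower with RLE size factors and 8 higher and 1 lower with total sense tags). DESeq2 called 0 of 5 and limma-voom 1 of 5. The sum of the 4 RBCS genes differed by -0.27 ± 0.11 (unadjusted p = 0.0211, adjusted p = 0.860) and was called in 1 of 16 alternatives, nuclear genes alone (-0.29, adjusted p = 0.0371).

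By TPM, RCA had its widest gap between genotypes at 6 h. The slh1 level was 1.47 times that of No-0 then (log2 0.56, counting interval 0.40 to 0.71), 1.10 times at 9 h and 0.868 times at 24 h. With nuclear tags alone as the base the log2 value of RCA at 6 h was 0.42. RBCS3B had a ratio of 1.30 at 6 h (log2 0.38, and 0.24 with nuclear tags). Neither base uses edgeR's TMM factors, which at 6 h were 0.885 for No-0 and 1.10 for slh1 and would lower the 6 h ratios. Which time has the widest gap with those factors was not tested. These are ratios of single libraries and no replicate check is possible.

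At 24 h all of the members were lower in slh1 by TPM, by ratios of 0.768 for RBCS1A, 0.818 for RBCS1B, 0.796 for RBCS2B, 0.871 for RBCS3B, 0.868 for RCA and 0.555 for AT2G39725. The test of whether slh1 departed further from No-0 at 24 h than at the other times gave log2 values of -0.19 to -0.38 for the small subunit genes and RCA, close to the median over all genes of -0.28. edgeR called 0 of 5 members, against 0.256% of all genes (20 of 7824), and 0 of 5 had an unadjusted p below 0.05 or a call by DESeq2 or limma-voom.

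AT2G39725 was chosen for its lower level in slh1, and its values are given with no test. The slh1 level was 1.39 times that of No-0 before the move, and 0.482, 0.720 and 0.555 times after 6, 9 and 24 h. The fitted log2 difference over the 21 °C time points was -0.98 ± 0.22, and it ranged from -1.08 to -0.70 when each library was left out in turn. Relative to its neighbour, AT2G39725 gave 13.2, 71.2, 33.6 and 57.2 tags per 100 RCA tags in No-0, in time order, and 16.9, 23.3, 22.0 and 36.6 in slh1. The 0 h libraries were the lowest of each genotype, and slh1 was below No-0 at each later time.

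Antisense tags set the members apart from each other. Over the 8 libraries antisense made up 11.8% of the tags of RBCS1A (10.9% to 12.5% by library), 3.70% for RBCS1B, 2.28% for RBCS2B, 5.96% for RBCS3B and 9.92% for RCA. Among 3405 loci with at least 100 tags and more sense than antisense the median was 4.79% and the 90th percentile 14.6%, so the RBCS genes and RCA lay under the 90th percentile. RBCS2B antisense was highest at 0 h, at 3.57% in No-0 and 3.98% in slh1, with 1.02% to 2.17% later. RBCS1B antisense was too, at 5.43% in No-0 and 6.70% in slh1, with 2.01% to 3.82% later. Antisense counts of the B genes held fractional values as well, so divided reads are among them. AT2G39725 had 0 antisense tags beside 2015 sense tags, which allows a counted share of up to 0.149%. Antisense reads within 500 bases of the 3′ end of RCA go to RCA by the counting rule above, so this is no limit on antisense transcription of AT2G39725.

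In percentage points the antisense share of RCA had the widest range, from 5.57% to 15.3%. RCA antisense numbered 90, 83, 45 and 228.5 tags at 0, 6, 9 and 24 h in No-0, where AT2G39725, transcribed in that direction, had 143, 371, 156 and 723 sense tags. In slh1 RCA antisense numbered 38.5, 57, 66 and 48 tags beside 110, 224, 124 and 164 sense tags of AT2G39725. No-0 at 24 h was the highest for both quantities, and it was also the deepest library.

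The chloroplast locus ATCG00490 (rbcL), which encodes the Rubisco large subunit, was followed beside the nuclear members and had 17.8 to 56.7 tags a library. The method reads polyadenylated transcripts, so these tags do not give the whole transcript level of this locus, which was not measured. Before the move No-0 had 156 TPM of it and slh1 had 192, above all later libraries (56.7 to 99.4 TPM). Its log2 changes from 0 h were -1.12, -1.17 and -0.86 in time order, and edgeR called none of them (adjusted p = 0.127, 0.0688 and 0.149).

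Rubisco folding and assembly factors formed the next group, a list of 15 genes of which 14 were tested. At 24 h 6 of the 14 were lower and 0 higher, with a median log2 change of -1.53 beside 0.03 over all genes, of which 8.26% were called lower and 10.5% higher. They were the chaperonin subunits CPN60A (-2.08), CPN60B (-1.72) and Cpn60beta2 (-3.34), which fold newly made large subunits, RbcX1, an assembly chaperone, and AT5G28500 (-1.40) and AT3G04550 (-2.11), both annotated as Rubisco accumulation factors. RbcX1 went from 109 TPM before the move to 1.99 a day later in No-0 and from 204 to 9.73 TPM in slh1, with levels at 24 h that lay under the limit of 3 tags. In slh1 at 24 h, where that limit is 14.6 TPM, Cpn60beta2 (9.73 TPM) and AT3G04550 (12.2 TPM) also lay under it. In No-0 at 24 h they had 25.8 and 36.8 TPM. AT3G04550 was higher at 9 h (1.34 ± 0.37, adjusted p = 0.00886), and CPN60B was the only gene of the list lower at 6 h (-1.15 ± 0.34, adjusted p = 0.0239).

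The other Calvin cycle enzymes numbered 15, with 14 tested. Of these, 0 were higher and 3 lower at 6 h, 0 higher and 6 lower at 9 h, and 2 higher and 5 lower at 24 h, with median log2 changes of -0.43, -0.56 and -0.58. Over all genes 1.55%, 3.04% and 8.26% were called lower at these times and 2.66%, 4.45% and 10.5% higher, and the medians were 0.06, 0.05 and 0.03. SBPASE, the sedoheptulose bisphosphatase, was lower at all 3 times (-1.42, -1.20 and -1.45, log2, in time order). The transketolase AT3G60750 (-1.33, -1.02 and -2.52) and HCEF1, a chloroplast fructose bisphosphatase (-1.02, -0.90 and -1.21), were too. PRK, which makes the substrate of Rubisco, fell by 0.78 at 9 h and by 1.09 at 24 h. GAPA-2 (-0.78) and RPE (-0.87) were lower at 9 h and the phosphoglycerate kinase AT1G56190 (-1.01) at 24 h. GAPA, a glyceraldehyde phosphate dehydrogenase subunit, rose by 1.07 at 24 h and the aldolase FBA1 by 1.15.

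Among 7 regulators, 6 of them tested, CA1, a carbonic anhydrase that is also 1 of the 4 leaf mesophyll markers, fell at all 3 times (-0.96, -0.83 and -1.13). CP12-1, whose protein binds PRK and glyceraldehyde phosphate dehydrogenase into an inactive complex, rose at 9 h (0.80) and 24 h (0.98), while its relative CP12-2 fell at 24 h (-1.47). AT3G48420, a haloacid dehalogenase-like hydrolase, fell at 6 h (-1.37) and 24 h (-1.65). Counted together, 0 were higher and 2 lower at 6 h, 1 higher and 1 lower at 9 h and 1 higher and 3 lower at 24 h, among 6 tested and beside the same shares over all genes. Between genotypes the smallest adjusted p over the 34 tested genes of these 3 lists was 0.897 after the move, with 4 genes at an unadjusted p below 0.05, 0.990 at 28 °C, with 1 gene, and 0.187 for a further difference at 24 h, with 4.

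By pattern over the 8 libraries, in log2(TPM + 5) among 2114 loci with a mean of at least 20 tags, RCA had the closest companions. They were CLA1, the first enzyme of the plastid isoprenoid pathway (Pearson r = 0.974), GAPA-2 (0.964), GGT1, a photorespiratory aminotransferase (0.943), the ankyrin repeat gene AT2G31820 (0.937) and GPX1, a glutathione peroxidase (0.928). CLA1 had 295, 153, 118 and 300 TPM in the wild type, in time order, and the slh1 libraries gave 354, 294, 137 and 199. For RBCS1A the nearest were AT5G45240, annotated as a TIR-NBS-LRR gene (0.933), AT3G01690 (0.829), FED A, a ferredoxin (0.803), ALP (0.786) and CaS, a thylakoid calcium-sensing protein (0.750). AT5G45240, at 97.1 to 173 TPM, had fractional counts in 8 of 8 libraries and shared no 20-base sequence with any member.

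For AT2G39725 the nearest were IRT3, a metal transporter (0.933), the transcription factor RAV2 (0.932), AT5G43150 (0.929), the SAUR-like gene AT4G38860 (0.924) and ARPC1A (0.910). IRT3 had 30.3, 92.3, 57.7 and 107 TPM in the wild type, in time order, and the slh1 libraries gave 54.8, 58.4, 27.4 and 82.7. These correlations describe 8 libraries that differ in depth, and they include those on which AT2G39725 was chosen.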

How the data were processed

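The authors truncated the first reads of a MiSeq run to 36 bases, filtered them with the FASTX Toolkit, split them by barcode and aligned them to TAIR10. The methods name Bowtie 0.12.8 for the tag libraries in general and BWA for the paired reads of this run, the labels list Bowtie and Novoalign 2.08.03, and which of them made these tables is not given in the sources used here. The deposited tables hold estimated counts of tags per locus and strand, not scaled. By the general counting rules of the methods, a read that fits up to 10 genes, or genes whose limits overlap, was divided evenly, and antisense has rows of its own. Here, TPM is sense tags scaled to 1000000 sense tags. Counts were rounded to whole numbers and fitted with edgeR 4.0.16 (filterByExpr by genotype and temperature, TMM, quasi-likelihood test). Time models had genotype as a block (3 residual degrees of freedom) and genotype models had time as a block (2). There are 8 groups of 1 library and a ninth sample with no group, which was not used. DESeq2 1.42.0, limma-voom (limma 3.58.1), other scalings, other filters and leaving out each library were the alternatives. Scripts were tested on simulated data.

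Named genes were the 6 members, ATCG00490, the 5 nearest genes by Pearson r for RBCS1A, RCA and AT2G39725, and every gene of the 3 Rubisco and Calvin cycle lists called in a contrast. The members and lists were chosen with earlier results of these data known. Sequences and gene models are from RefSeq TAIR10.1. For sense tags the limit of detection was set at 3 tags, 5.96 to 15.0 TPM by library.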

Additional observations from a re-analysis of the deposited data

Results flagged for a closer look

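By TPM, RBCS1A went opposite ways in the genotypes between 0 h and 24 h. Its TPM rose by 0.21 on the log2 scale in No-0 (counting interval 0.17 to 0.26) and changed by -0.12 in slh1 (-0.19 to -0.055), a difference of -0.34, slh1 minus No-0. The organelle share of sense tags went from 22.7% to 13.5% in No-0 and from 20.7% to 18.3% in slh1. Per 1000000 nuclear sense tags, RBCS1A went from 24183 to 25056 in No-0, a smaller rise than by TPM. On that base it went from 22839 to 20355 in slh1, so the directions stayed opposite. These are single libraries, and neither base uses edgeR's TMM factors. Those factors went from 0.983 to 0.942 in No-0 and from 1.04 to 0.989 in slh1. Whether the slh1 change stays off 0 with them was not tested. The edgeR term for a further slh1 difference at 24 h was -0.19 ± 0.34 for RBCS1A (adjusted p = 0.955), and the difference between the changes from 0 h was not tested by itself.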

How the results depend on the processing

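Of 620 member values refitted under alternatives, 24 gained a call, 8 lost one, 1 with no test moved and 28 changed sign, 26 of them uncalled under either setting. The AT2G39725 difference further at 24 h turned from -0.36 to 0.20 without No-0 at 0 h and to 0.12 without slh1 at 0 h (range over libraries left out -0.73 to 0.20). Beside these fits, the RBCS1A TPM ratio at 6 h turned to -0.072 with nuclear tags, that of RBCS1B went from 0.087 to -0.050 and that of the RBCS sum from 0.16 to 0.024. Counts of called genes (6, 9 and 24 h against 0 h: 329, 586 and 1465) became 142, 299 and 829 with DESeq2. With a mean of at least 20 tags those for 6 h and 24 h became 213 and 872, and with no filter that for 6 h became 197. The genotype counts (8 at 21 °C, 3 at 28 °C, 20 further at 24 h) became 1, 1 and 4 with DESeq2, 1, 0 and 13 with at least 20 tags, 4 at 21 °C and 13 further at 24 h with no filter, 20 and 1 (21 °C, 28 °C) with limma-voom, and 30 at 21 °C with nuclear genes. Leaving out each library gave 48 to 439, 157 to 745 and 718 to 1428 genes for 6, 9 and 24 h, 2 to 100 at 21 °C, 3 to 13 at 28 °C and 4 to 69 further at 24 h. The lowest time counts were those without No-0 at 0 h. The causes were not tested. Leaving out each time pair gave -3.88 to -1.95 points for the RBCS1A share and 0.17 to 0.26 for the log2 RCA ratio. Depth limits AT2G39725, with 110 to 723 tags a library, and ATCG00490, with 17.8 to 56.7.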
